A study of Mus musculus with 7 samples.

Results

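The 38 genes described here code for axon guidance ligands and receptors. They were taken from a fixed list of symbols and matched by gene name to the 55536 genes of the count tables, and all 38 were found. The list holds 10 semaphorins, 7 plexins, the neuropilin *Nrp2*, 7 Eph receptors, 2 ephrins, 3 Slits, 2 Robos, the netrin *Ntn1* with its receptors *Dcc*, *Unc5c* and *Unc5d*, and the 2 netrin-G genes *Ntng1* and *Ntng2*.

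Guidance ligands are secreted or membrane-bound proteins that attract or repel growing axons and migrating cells. Semaphorins bind plexins, most secreted class 3 semaphorins use a neuropilin as coreceptor, ephrins bind Eph receptor kinases in cell contacts, Slits bind Robos, and netrins bind Dcc and Unc5 receptors. In the adult hippocampus the same proteins remain present at synapses, in glia and in vessels, where they are known for roles in synapse maintenance, in the migration of oligodendrocyte precursors and in contacts between cells.

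Nuclei were isolated from the hippocampi of wild-type (WT) and Arctic48 (Arc) mice and barcoded by split-pool RNA-seq, in which each mouse entered its own well of the initial barcoding round. Genotype and treatment gave 4 groups, Arc-PMX, WT-PMX, Arc-veh and WT-veh, each with 6 single-nucleus wells from 3 female and 3 male mice (named F1, F2, F3 and M1, M2, M3). Arc mice were hemizygous for a human APP transgene with the Indiana, Swedish and Arctic mutations, and the WT mice were born of the same crosses to C57BL6/J without the transgene. PMX groups drank PMX205, a cyclic peptide antagonist of the C5a receptor C5aR1, at 20 μg/ml in water, veh groups drank water alone, and all mice were housed singly and were 10 months old at collection. By the labels the treatment lasted 12 weeks, and the study's text gives ages that span a somewhat shorter course. The labels also place the transcription blockers Actinomycin D and Triptolide in the perfusion solution, whereas the study's methods give such blockers for the microglial cells and not for the nuclei. The study's methods do not name the promoter of the transgene. The study's reporting summary drops 1 sample of the WT mice as an Arctic animal by its transcripts. It does not say which, so all 24 wells were kept here.

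After the study's filters and the removal of doublets 43885 nuclei remained, with a median of 4414 transcripts per nucleus and between 4389302 and 30001277 transcripts per well. Of these nuclei 39711 fell into clusters that could be named from marker genes. In all, 17 types could be described in the members' levels and 13 had enough wells in every group for a test. The reference holds the mouse *App* and not the human transgene, and *App* in neurons ran from 443 to 573 CPM in WT wells and from 543 to 795 CPM in Arc wells, with 10 of 12 Arc wells above every WT well, and the sex labels matched the sex-linked genes in every well. Few oligodendrocytes and microglia were recovered in 2 WT-veh wells, F3 (14 oligodendrocytes, 0 microglia) and M3 (28 and 3), and calls were also made without these wells. CPM is the count of a gene divided by all transcripts of that nucleus type in that well and scaled to 1000000.

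Across the 17 types, 25 of the 38 members had their highest mean level in a type of neuron and 13 in glia, vessel cells or precursors. Dentate gyrus (DG) granule neurons and mossy cells each held the highest level of 6 members, CA3 pyramidal neurons, oligodendrocyte precursors (OPCs) and endothelial cells of 4 each. The members had been left out of the genes used for clustering, and the levels are a description with no test. With each nucleus named by its highest marker score in place of its cluster, 15 of the 38 highest levels moved by more than their SD. In 4 members, *Sema3d*, *Nrp2*, *Plxna4* and *Sema5a*, every well of the highest type lay above every well of the next type. For the other 34 the wells of the 2 highest types overlapped, so their order at the top is not separated by the spread between wells. Means and SDs are over 24 wells, except for mossy cells (5 wells, all of them WT), pericytes (13), endothelial cells and an unresolved class of inhibitory neurons (17 each) and microglia (22), the types with enough nuclei in fewer wells. Endothelial nuclei held much neuronal RNA. Their summed level of 6 neuronal markers was 8184 ± 2203 CPM in WT-veh, 5839 ± 2367 in WT-PMX, 6841 ± 1564 in Arc-veh and 6948 ± 4306 in Arc-PMX. In neurons it was 16708.5 CPM. The part of this RNA in the endothelial levels was not tested.

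**Figure D1:**
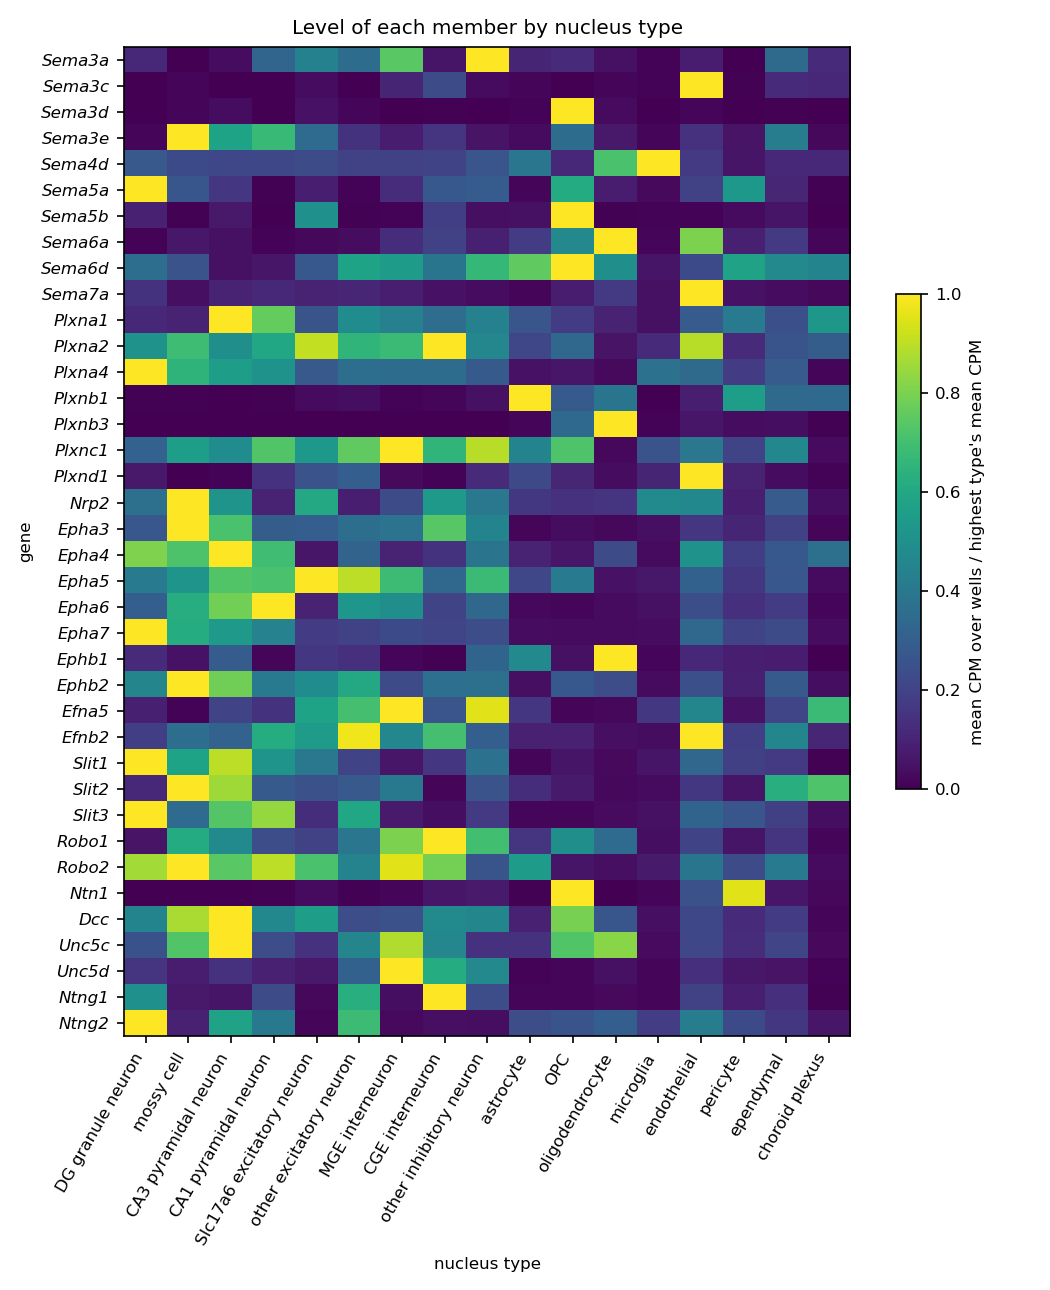
Mean level of each of the 38 members (vertical axis, gene) in 17 nucleus types (horizontal axis), each row divided by the mean CPM of its highest type, so that 1.0 marks that type. *Sema3d* is bright in OPCs alone, with 541 CPM against 26.2 CPM in the next type, *Plxnb3* is brightest in oligodendrocytes, and the Eph receptors other than *Ephb1* are brightest among the neurons.

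Among the semaphorins, several belonged to glia or vessels. *Sema3d*, a secreted class 3 semaphorin, reached 541 ± 204 CPM (SD) in OPCs and 26.2 ± 11.0 CPM in neurons expressing *Slc17a6*, the next type, a ratio of 20.6. *Sema5b* was highest in OPCs at 485 ± 94.0 CPM, with 243 ± 100 CPM in *Slc17a6* neurons. *Sema6d*, a transmembrane semaphorin, was highest in OPCs at 1317 ± 125 CPM and followed in astrocytes at 998 ± 360 CPM, whereas its paralog *Sema6a* was highest in oligodendrocytes at 595 ± 127 CPM and followed in endothelial cells at 478 ± 256 CPM. *Sema3c* and *Sema7a* were highest in endothelial cells, at 474 ± 180 and 236 ± 157 CPM, and *Sema4d*, a ligand of plexin-B1, in microglia at 362 ± 106 CPM with oligodendrocytes next at 259 ± 77.0 CPM. The neuronal semaphorins were *Sema5a*, *Sema3e* and *Sema3a*. *Sema5a* was at 868 ± 64.9 CPM in DG granule neurons against 535 ± 79.9 CPM in OPCs, and *Sema3e* at 413 ± 127 CPM in mossy cells against 279 ± 40.02 CPM in CA1 neurons. *Sema3a* was low in all 17 types, with 26.7 ± 36.5 CPM in the unresolved inhibitory class against 19.8 ± 10.5 CPM in interneurons of the medial ganglionic eminence (MGE). Outside these types, *Sema3a* was among the leading genes of an unnamed cluster of 181 nuclei, for which no level was given.

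Plexins, the semaphorin receptors, divided in the same way. *Plxna4* reached 2035 ± 216 CPM in DG granule neurons against 1326 ± 138 CPM in mossy cells. *Plxna1* was highest in CA3 neurons at 126 ± 36.0 CPM, followed by CA1 neurons at 96.1 ± 27.3 CPM. *Plxna2* was highest in interneurons of the caudal ganglionic eminence (CGE) at 459 ± 70.5 CPM, close to *Slc17a6* neurons at 416 ± 91.4 CPM, and *Plxnc1*, the receptor of *Sema7a*, in MGE interneurons at 154 ± 21.6 CPM, close to the unresolved inhibitory class at 137 ± 32.6 CPM. The B plexins were glial. *Plxnb1* was highest in astrocytes at 270 ± 102 CPM with pericytes next at 150 ± 132 CPM, and *Plxnb3* in oligodendrocytes at 420 ± 122 CPM with OPCs next at 144 ± 62.3 CPM. *Plxnd1*, the receptor of *Sema3e* in vessels, was highest in endothelial cells at 90.2 ± 59.0 CPM against 26.9 ± 12.8 CPM in the other excitatory neurons. *Nrp2* reached 403 ± 72.8 CPM in mossy cells and 243 ± 35.9 CPM in *Slc17a6* neurons.

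Eph receptors were neuronal with 1 exception. *Epha6* reached 4645 ± 645 CPM in CA1 and 3657 ± 541 CPM in CA3 neurons, and *Epha4* 676 ± 81.5 CPM in CA3 and 544 ± 84.0 CPM in DG granule neurons. *Epha7* was highest in DG granule neurons at 859 ± 150 CPM and then in mossy cells at 532 ± 111 CPM, *Epha3* in mossy cells at 464 ± 152 CPM and then in CGE interneurons at 344 ± 99.1 CPM, and *Ephb2* in mossy cells at 234 ± 81.9 CPM and then in CA3 neurons at 183 ± 47.0 CPM. *Epha5* was highest in *Slc17a6* neurons at 964 ± 172 CPM, with the other excitatory neurons at 869 ± 148 CPM. The exception was *Ephb1*, at 974 ± 191 CPM in oligodendrocytes and 461 ± 82.6 CPM in astrocytes. Of their ligands, *Efna5* was highest in MGE interneurons at 372 ± 70.1 CPM, close to the unresolved inhibitory class at 355 ± 85.9 CPM, and *Efnb2*, which marks arterial endothelium, was at 69.1 ± 57.7 CPM in endothelial cells and 67.7 ± 10.2 CPM in the other excitatory neurons.

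The Slits were ligands of the principal neurons. *Slit3* reached 3058 ± 315 CPM in DG granule neurons and 2570.0 ± 239.7 CPM in CA1 neurons, *Slit1* 801 ± 132 CPM in DG and 722 ± 119 CPM in CA3 neurons, and *Slit2* 639 ± 112 CPM in mossy cells and 548 ± 89.0 CPM in CA3 neurons, with only 74.2 CPM in DG granule neurons. Their receptor *Robo1* was highest in CGE interneurons at 1845 ± 446 CPM and then in MGE interneurons at 1482 ± 167 CPM, and *Robo2* in mossy cells at 767 ± 158 CPM and MGE interneurons at 731 ± 110 CPM. In the netrin family, *Ntn1* was at 353 ± 86.1 CPM in OPCs and 337 ± 257 CPM in pericytes. Its receptors *Dcc* and *Unc5c* were highest in CA3 neurons, at 2634 ± 288 and 1743 ± 183 CPM, with mossy cells next for *Dcc* at 2295 ± 295 CPM and MGE interneurons next for *Unc5c* at 1535 ± 339 CPM. *Unc5d* was highest in MGE interneurons at 2215 ± 349 CPM and then in CGE interneurons at 1375 ± 427 CPM. The netrin-Gs, membrane-anchored proteins of synapses, differed in place, *Ntng1* with 1160.4 ± 373 CPM in CGE interneurons and 725 ± 111 CPM in the other excitatory neurons, *Ntng2* with 230 ± 50.4 CPM in DG granule neurons and 157 ± 33.0 CPM in the other excitatory neurons.

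Cajal-Retzius neurons, the reelin-producing cells of the hippocampal fissure, were too few for levels by well, with 118 nuclei in all. Pooled over wells, *Robo2* was at 4567 CPM in them (851 counts, exact Poisson interval 4266 to 4885 CPM, counting error only), above the 767 CPM of mossy cells. *Epha3* at 768 CPM, *Plxnd1* at 247 CPM and *Ntng2* at 542 CPM were also above their highest mean in any of the 17 types. These pooled values have no replicate check.

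Promoters of 31 of the 38 members were in the RefSeq table of build GRCm38.p6, with 37 start sites. *Unc5d*, *Dcc*, *Ntn1*, *Plxna1*, *Slit1*, *Sema6a* and *Plxna4* were missing from it. The 250 bases before the start of 4 members that differed by genotype are shown, *Slit2* at chr5:47982905-47983154 on the plus strand, *Sema3d* at chr5:12382916-12383165 on the plus strand, *Sema6d* at chr2:124089719-124089968 on the plus strand (the start used is 1 of 2) and *Ntng2* at chr2:29248100-29248349 on the minus strand, written 5′ to 3′ with matches to the motifs below in capitals.
Slit2: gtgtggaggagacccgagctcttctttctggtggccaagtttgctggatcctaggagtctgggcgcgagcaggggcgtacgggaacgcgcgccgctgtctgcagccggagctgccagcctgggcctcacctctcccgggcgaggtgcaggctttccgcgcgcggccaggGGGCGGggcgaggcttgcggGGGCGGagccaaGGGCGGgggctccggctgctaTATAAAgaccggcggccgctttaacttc
Sema3d: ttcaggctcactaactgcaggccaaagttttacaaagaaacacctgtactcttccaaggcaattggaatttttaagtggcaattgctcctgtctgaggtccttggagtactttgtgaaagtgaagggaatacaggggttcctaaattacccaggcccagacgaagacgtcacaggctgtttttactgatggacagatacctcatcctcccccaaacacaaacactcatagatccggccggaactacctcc
Sema6d: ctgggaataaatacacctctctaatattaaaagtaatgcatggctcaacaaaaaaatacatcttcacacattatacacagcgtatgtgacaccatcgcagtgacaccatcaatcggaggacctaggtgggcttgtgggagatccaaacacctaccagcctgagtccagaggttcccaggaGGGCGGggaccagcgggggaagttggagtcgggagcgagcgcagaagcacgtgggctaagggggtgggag
Ntng2: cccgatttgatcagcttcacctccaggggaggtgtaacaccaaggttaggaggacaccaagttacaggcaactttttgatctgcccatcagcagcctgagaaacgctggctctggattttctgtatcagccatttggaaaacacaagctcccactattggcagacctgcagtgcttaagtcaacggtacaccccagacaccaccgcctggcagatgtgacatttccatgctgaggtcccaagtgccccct

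Motifs were searched on both strands in these windows. The GC box GGGCGG was in 21 of the 37 member promoters (56.8%), against 32.7% of all 32851 promoters of the table, and the members' windows were richer in G and C, with a median of 64.8% against 52.4% over all. The TATA box TATAAA was in 2 (5.41%, against 12.4% of all), in *Slit2* and *Efnb2*, the E-box CAGCTG in 5 (13.5%, against 4271 of the 32851), the AP-1 motif TGANTCA in 1, *Sema4d* (2.7%, against 6.75%), and the STAT motif TTCNNNGAA in 1, *Epha3* (2.7%, against 7.02%). *Slit2* thus held 3 GC boxes and a TATA box in a window of 69.6% G and C, *Sema6d* held 1 GC box, and the windows of *Sema3d* and *Ntng2* held none of the 5 motifs. These matches describe letters and say nothing of binding. The *Ntng2* window lies inside the gene as annotated on mm10, whose 5′ end is at chr2:29253005. The bases before that end were not searched.

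The effect of the transgene on the members was asked in each type by comparing Arc with WT wells over both treatments. The filter on low counts left 353 pairs of a member and a type, every member being tested in at least 2 types. Of these pairs 23 passed the edgeR test at an adjusted p of 0.05 (6.52%), 13 higher and 10 lower in Arc, against 2.88% of all pairs of a gene and a type (1.72% higher and 1.16% lower). In this fit the calls lay mainly in glia. In astrocytes 14 of 27 tested members were called, 8 higher and 6 lower, against 20.1% of astrocyte genes (11.5% and 8.55%). Oligodendrocytes had 3 of 23 (against 5.51%), microglia 2 of 6 (19.9%), OPCs 1 of 19 (2.76%) and DG granule neurons 3 of 32 (1.61%). With low counts filtered and p adjusted within each type, edgeR called no member in the other 8 types, where few genes were called at all, with 0.0975% in CA1 neurons, 0.347% in CA3 neurons, 0.0375% in MGE interneurons, 0.0132% in the unresolved inhibitory class, 0.0288% in *Slc17a6* neurons, 0.0801% in the other excitatory neurons and 0.0% in CGE interneurons and endothelial cells. In these types DESeq2 called *Unc5d* in *Slc17a6* neurons, and adjustment over all types together called *Unc5d* and *Sema3c* there and *Slit2* in MGE interneurons. With no filter on low counts 43 pairs were called, 20 of them shared with the 23. The number of pairs then tested and the share of all genes called were not set beside this count. Added pairs lay also in CA3, MGE, *Slc17a6*, other excitatory and unresolved inhibitory neurons, in both directions. *Dcc* was at 0.98 in the other excitatory and -0.40 in *Slc17a6* neurons (edgeR adjusted p = 2.93e-23 and 0.0183). With the filter these values were much the same, 0.96 and -0.42, and neither passed (edgeR adjusted p = 0.423 and 0.514). Without the WT-veh wells F3 and M3, 28 pairs were called in place of 23. Of the 5 added, the filter on low counts had removed 4 with all wells in the fit, *Epha7* and *Slit1* in oligodendrocytes (-1.39 and -1.16, edgeR adjusted p = 0.00717 and 0.0367) and *Slit1* and *Sema3c* in astrocytes (-1.04 and 2.13, edgeR adjusted p = 0.00489 and 0.000764). The fifth was *Epha6* in OPCs, described below by arm. The median log2 fold change of the tested members was -0.06 in astrocytes and -0.06 in DG granule neurons, against -0.01 and 0.00419 for all genes tested there.

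Of the 10 semaphorins 4 were called in a type, 3 of them in astrocytes. In astrocytes *Sema6d* ran from 642 to 837 CPM (median 721) in WT-veh wells and from 466.3 to 790.2 CPM (median 656) in WT-PMX wells. It ran from 952 to 1609.6 CPM (median 1321) in Arc-veh wells and from 1149 to 1619.8 CPM (median 1256) in Arc-PMX wells. All 12 Arc wells were thus above all 12 WT wells. The log2 fold change over both treatments was 0.91 (SE 0.09, a fold of 1.89, edgeR adjusted p = 1.38e-10). *Sema6a* in astrocytes was at 49.5 to 78.5 CPM (median 67.0) in WT-veh, 58.9 to 89.6 CPM (median 75.8) in WT-PMX, 119 to 182 CPM (median 143) in Arc-veh and 105 to 157 CPM (median 134) in Arc-PMX. Its Arc and WT wells also did not overlap, and its log2 fold change was 0.90 (SE 0.10, edgeR adjusted p = 3.6e-09). In the same cells *Sema4d* went the other way, from a mean of 168 ± 34.2 CPM (n = 12) in WT to 115 ± 21.7 CPM (n = 12) in Arc, a log2 fold change of -0.55 (SE 0.11, edgeR adjusted p = 0.000203), and 6 Arc wells were below every WT well.

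In OPCs *Sema3d*, the member with the widest gap between its highest type and the next, ran from 308 to 456 CPM (median 412) in WT-veh wells and from 276 to 483 CPM (median 356) in WT-PMX wells. It ran from 641 to 779 CPM (median 727) in Arc-veh wells and from 379 to 914 CPM (median 731) in Arc-PMX wells. Arc-veh and WT-veh did not overlap, 2 Arc-PMX wells fell within the WT range, and the log2 fold change over both was 0.89 (SE 0.12, a fold of 1.86, edgeR adjusted p = 1.19e-07). The counts behind a well ranged from 17 to 276. The summed markers of OPCs stood at 15223 ± 1108 CPM in WT-veh, 14474 ± 1248 in WT-PMX, 17826 ± 1251 in Arc-veh and 18127 ± 1683 in Arc-PMX (SD, n = 6), and their part in the result was not tested. In DG granule neurons *Sema6d* went against its direction in astrocytes, with 517 ± 45.3 CPM (n = 12) in WT and 431 ± 54.9 CPM (n = 12) in Arc, a log2 fold change of -0.26 (SE 0.07, edgeR adjusted p = 0.0351). That call was lost without any of 11 of the 24 wells and was -0.01 (edgeR adjusted p = 1.0) in the larger of the 2 granule neuron clusters alone.

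**Figure D2:**
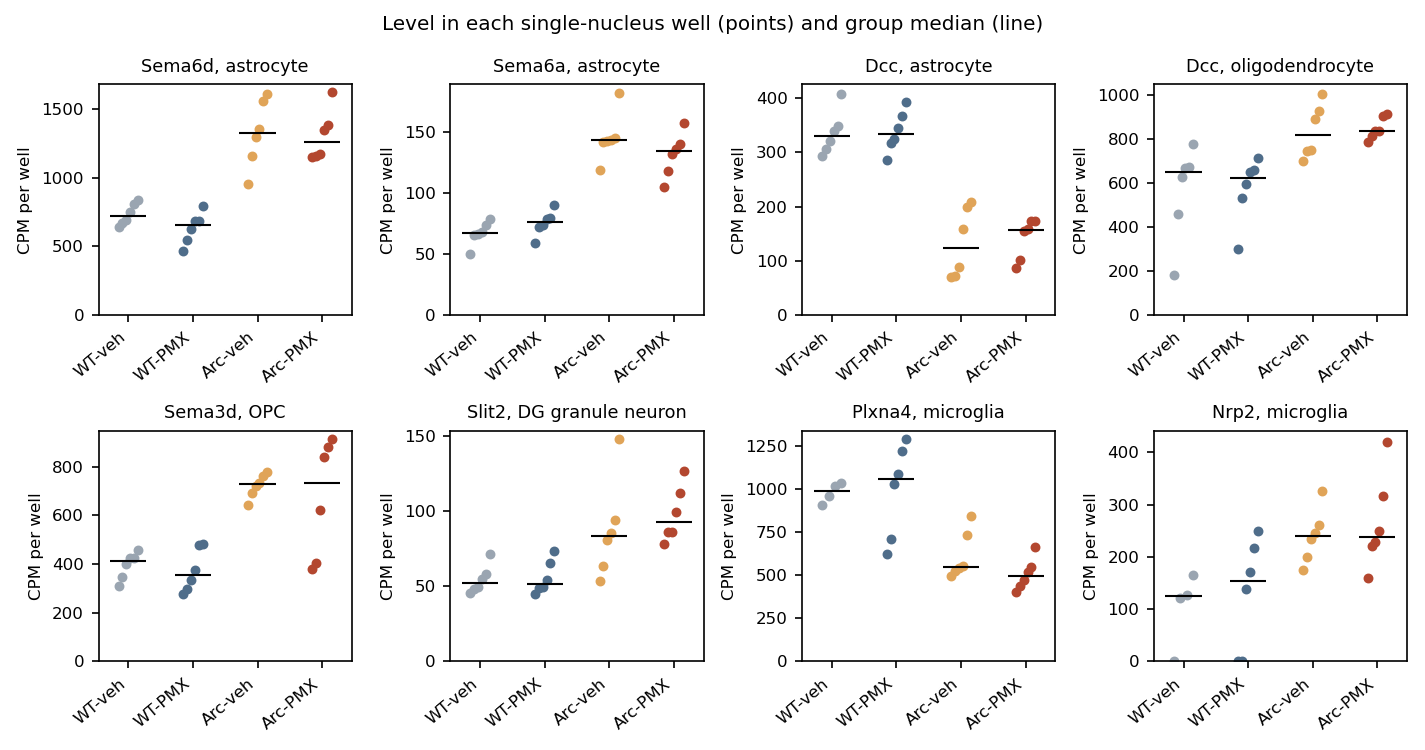
Level of 7 members in each single-nucleus well (points, vertical axis CPM from 0) by group (horizontal axis), with the group median as a line, for 8 pairs of a gene and a type. Arc and WT wells do not overlap for *Sema6d*, *Sema6a* and *Dcc* in astrocytes, and overlap in 1 or both treatments in the other 5 panels.

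Plexins and *Nrp2* changed in astrocytes and microglia. In astrocytes *Plxnd1* was low, with 0 to 6 counts a well in WT-veh (0.0 to 19.8 CPM) and 2 to 19 counts in WT-PMX (4.28 to 25.2 CPM). It ran from 21.9 to 39.7 CPM in Arc-veh and from 17.9 to 40.3 CPM in Arc-PMX, so that 8 of 12 Arc wells were above every WT well. Its log2 fold change of 1.47 (SE 0.26, edgeR adjusted p = 3.44e-05) was the largest rise among the members called with low counts filtered. With WT levels this near the floor *Plxnd1* may have passed that filter only through the Arc wells, which was not tested. The filter removed it in astrocytes without the cluster led by *Gfap*, described below. With no filter larger rises were called, among them *Plxnc1* in microglia (4.61, SE 0.86) and *Sema3d* in astrocytes (4.39, SE 0.62), 2 pairs whose counts were too low for the filter. *Sema3d* is highest in OPCs. The summed OPC markers in astrocytes were 109 ± 25.9 CPM in WT-veh, 96.2 ± 38.7 in WT-PMX, 172 ± 75.3 in Arc-veh and 126 ± 22.8 in Arc-PMX, and their part was not tested. *Plxna2* was at 75.8 ± 19.8 CPM in WT and 120 ± 27.2 CPM in Arc astrocytes, a log2 fold change of 0.60 (SE 0.13, edgeR adjusted p = 0.000693), with 11 of 12 Arc wells above every WT well. *Plxnc1* was at 57.0 ± 20.5 and 82.0 ± 12.1 CPM, a log2 fold change of 0.42 (SE 0.13, edgeR adjusted p = 0.021), with 7 of 12 Arc wells above every WT well, and its call was lost without Arc-PMX F1 or WT-veh F1. The call was also lost under 4 of 12 alternatives. Among them were adjustment over all types together, no filter on low counts and nuclei named by their highest marker score.

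In microglial nuclei *Plxna4* ran from 909 to 1034 CPM (median 988) in the 4 WT-veh wells with enough nuclei and from 624 to 1293 CPM (median 1060, 1059.5 before rounding) in 6 WT-PMX wells. It ran from 495 to 843 CPM (median 549) in Arc-veh and from 403 to 667 CPM (median 497) in Arc-PMX, and 9 of 12 Arc wells were below every WT well. The log2 fold change was -0.85 (SE 0.14, a fold of 0.556, edgeR adjusted p = 1.31e-05), and it was -0.26 (edgeR adjusted p = 0.298) with doublets kept, -0.46 (edgeR adjusted p = 0.106) with nuclei named by their highest marker score and -0.46 (edgeR adjusted p = 0.0633) with no filter on low counts. With doublets kept the clusters were drawn anew, and 2601 nuclei were named microglia in place of 1516. Their median was 1421 against 1007 transcripts, and no well held fewer than 29. With doublets removed, a cluster of 963 nuclei led by the microglial marker *Inpp5d* had stayed unnamed for markers of a second type. The make-up of the added nuclei was not tested. *Nrp2* rested on 0 to 8 counts a WT well, with 0.0 to 166 CPM in WT-veh and 0.0 to 249.8 CPM in WT-PMX, against 175 to 327 CPM in Arc-veh and 159 to 419.9 CPM in Arc-PMX. Its log2 fold change was 0.99 (SE 0.30, edgeR adjusted p = 0.0139), and 0.36 (edgeR adjusted p = 0.0549) with doublets kept. With adjustment over all types together it did not pass either (edgeR adjusted p = 0.0769). The summed microglial markers were at 13518 ± 1389.6 CPM in WT-veh, 12689 ± 1448 in WT-PMX, 9684 ± 700.3 in Arc-veh and 9758 ± 944 in Arc-PMX, and their part was not tested. Summed neuronal markers in microglia did not separate the genotypes, with medians of 1235 CPM in WT-veh, 842 in WT-PMX, 1177 in Arc-veh and 1286 in Arc-PMX.

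Eph receptors were lower in Arc wherever they were called, alternatives aside. With no filter on low counts *Epha3* was called higher in the other excitatory neurons (0.42, edgeR adjusted p = 0.00204), against 0.41 (edgeR adjusted p = 0.595) with the filter. Without the filter *Epha3* was called lower in DG granule neurons and the unresolved inhibitory class (-0.32 and -0.56, edgeR adjusted p = 0.00669 and 0.0246). With the filter the values were -0.31 and -0.56 and neither passed (edgeR adjusted p = 0.069 for the former). In DG granule neurons *Epha4*, a receptor of both ephrin classes, was at 602 ± 62.9 CPM (n = 12) in WT and 486 ± 59.4 CPM (n = 12) in Arc, a log2 fold change of -0.30 (-0.295 before rounding, SE 0.06, edgeR adjusted p = 0.00968). It was -0.21 and -0.22 (edgeR adjusted p = 0.406 and 0.107) in the larger and the smaller cluster alone. In astrocytes *Epha4* (-0.49, SE 0.12), *Epha6* (-0.69, SE 0.16) and *Epha7* (-0.97, SE 0.24) all fell, with edgeR adjusted p of 0.0024, 0.00104 and 0.00237. *Epha6* fell in oligodendrocytes too, from 173 ± 84.5 to 106 ± 50.7 CPM (log2 fold change -0.79, SE 0.21, edgeR adjusted p = 0.0127), but without the well WT-veh F2, at 383 CPM against 91.9 to 194 CPM in the other 5 WT-veh wells, the value was -0.52 (edgeR adjusted p = 0.179). It also missed the threshold by DESeq2 (-0.74, adjusted p = 0.0555) and with nuclei named by their highest marker score (-1.06, edgeR adjusted p = 0.0641).

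These Eph receptors are abundant in neurons, so their glial levels were set beside the neuronal RNA in the same nuclei. The summed level of 6 neuronal markers in astrocytes was 0.0508 of that in neurons, and it was lower in Arc, with 1053 ± 71.3 CPM in WT-veh, 887 ± 114 in WT-PMX, 697 ± 155 in Arc-veh and 757 ± 201 in Arc-PMX (SD, n = 6). *Epha6* in astrocytes stood at 0.0384 of its level in neurons, *Epha7* at 0.0642 and the ligand *Slit3* at 0.0263, all close to or under that ratio. *Epha6* in oligodendrocytes stood at 0.0522 against a marker ratio of 0.0479, and the markers there were at 940 ± 263 CPM in WT-veh, 841 ± 304 in WT-PMX, 656 ± 167 in Arc-veh and 762 ± 370 in Arc-PMX. The part of neuronal RNA in these 4 results was not tested further than by leaving out the nuclei with the most of it, which gave log2 fold changes of -0.80 for *Epha6*, -1.01 for *Epha7* and -0.59 for *Slit3* in astrocytes and -0.63 for *Epha6* in oligodendrocytes, with edgeR adjusted p from 2.7e-05 to 0.0377. *Epha4* at 0.163 and *Dcc* at 0.176 were above the marker ratio, and *Sema6d* at 2.53 and *Sema6a* at 4.33 were higher in astrocytes than in neurons.

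**Figure D3:**
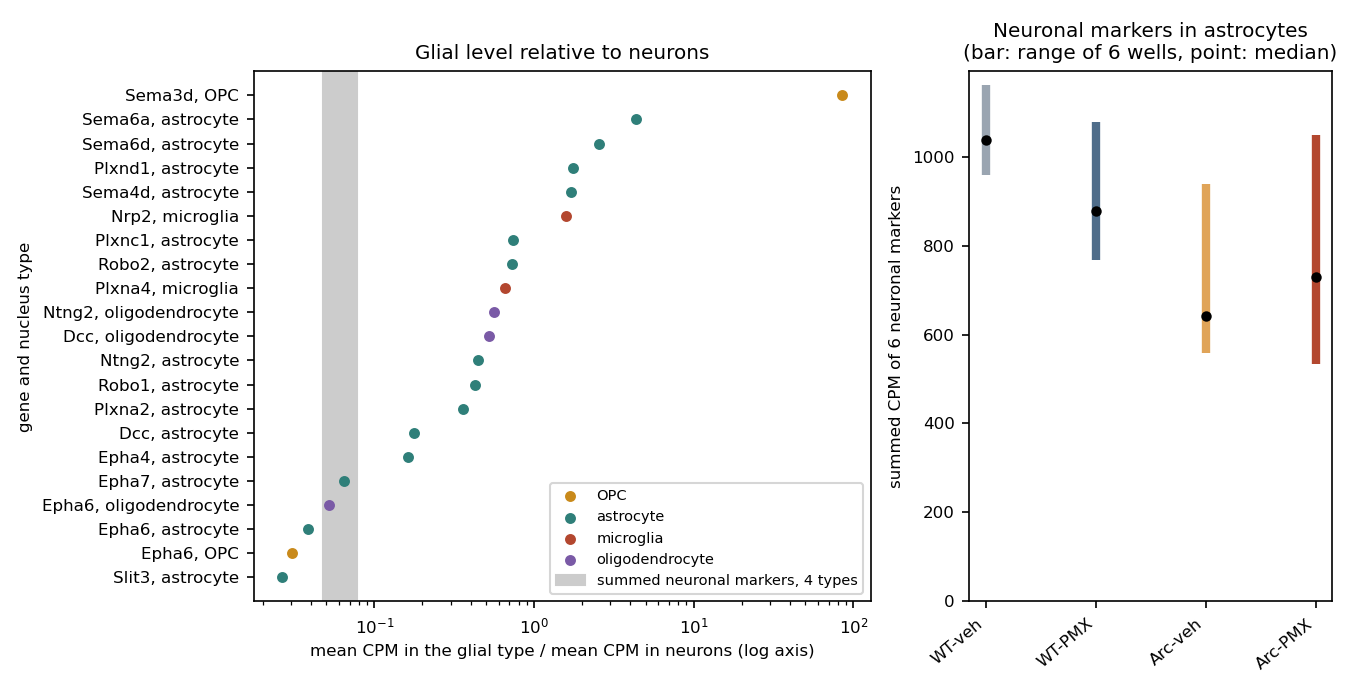
Left, mean level in a glial type divided by the mean level in neurons (log horizontal axis) for each called pair of a member and a glial type (vertical axis), with the ratios of the summed neuronal markers in the 4 glial types as a grey band from 0.0479 to 0.0776. Right, the summed CPM of the 6 neuronal markers in astrocytes by group, bars for the range of 6 wells and points for the median, highest in WT-veh at 1036 CPM and lowest in Arc-veh at 641 CPM.

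*Slit2* differed in DG granule neurons, and *Slit3*, *Robo1* and *Robo2* in astrocytes. In DG granule neurons *Slit2* ran from 45.4 to 71.7 CPM (median 52.3) in WT-veh wells and from 45.2 to 73.7 CPM (median 51.8) in WT-PMX wells. It ran from 53.8 to 148 CPM (median 83.3) in Arc-veh wells and from 78.1 to 127 CPM (median 92.7) in Arc-PMX wells. The PMX groups did not overlap, the veh groups did, and 10 of 12 Arc wells were above every WT well. The log2 fold change was 0.79 (SE 0.13, a fold of 1.73, edgeR adjusted p = 0.000341), and it was 0.67 and 0.84 (edgeR adjusted p = 0.00539 and 0.000711) in the larger and the smaller cluster alone. The larger cluster held 44.5% of granule neurons in WT-veh, 45.9% in WT-PMX, 68.8% in Arc-veh and 60.7% in Arc-PMX. Mossy cells, where *Slit2* is highest, left summed markers of 65.3 ± 6.83 CPM in WT-veh granule neurons, 69.3 ± 12.9 in WT-PMX, 78.1 ± 17.2 in Arc-veh and 77.2 ± 16.7 in Arc-PMX, and their part was not tested.

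In astrocytes both Robo receptors were higher in Arc, *Robo2* at 477 ± 74.0 against 366 ± 47.1 CPM (log2 fold change 0.34, SE 0.09, edgeR adjusted p = 0.00552) and *Robo1* at 304 ± 30.8 against 245 ± 31.2 CPM (0.27, SE 0.08, edgeR adjusted p = 0.0156). Of the 12 Arc wells 10 were above every WT well for *Robo2* and 7 for *Robo1*. Without the astrocytes that held the most neuronal RNA *Robo1* was at 0.20 (edgeR adjusted p = 0.126). *Slit3* was lower, at 43.6 ± 14.4 against 62.5 ± 18.6 CPM (-0.64, SE 0.17, edgeR adjusted p = 0.00349), and its level relative to neurons is given above.

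The netrin receptor *Dcc* moved in opposite directions in 2 glial types. In astrocytes it ran from 293 to 408 CPM (median 329) in WT-veh wells and from 286 to 392 CPM (median 334) in WT-PMX wells. It ran from 69.5 to 209 CPM (median 123) in Arc-veh wells and from 86.4 to 174 CPM (median 157) in Arc-PMX wells, with all 12 Arc wells below all 12 WT wells. The log2 fold change was -1.37 (SE 0.15, a fold of 0.386, edgeR adjusted p = 9.52e-10), and it was -1.67 without the astrocytes that held the most neuronal RNA. In oligodendrocytes *Dcc* ran from 184 to 775 CPM (median 649) in WT-veh, from 301 to 711 CPM (median 621) in WT-PMX, from 700 to 1006 CPM (median 818) in Arc-veh and from 788 to 912 CPM (median 836) in Arc-PMX. The PMX groups did not overlap, the lowest WT-veh value rested on 2 counts in F3, and the log2 fold change was 0.58 (SE 0.11, edgeR adjusted p = 0.000241), or 0.56 (edgeR adjusted p = 0.000194) without both WT-veh wells that held few oligodendrocytes. It was 0.12 (edgeR adjusted p = 0.613) when nuclei were named by their highest marker score. *Dcc* is at 2093 CPM in OPCs, and the summed OPC markers in oligodendrocytes were 64.4 ± 34.0 CPM in WT-veh, 149 ± 136 in WT-PMX, 198 ± 56.3 in Arc-veh and 236 ± 67.5 in Arc-PMX. Their part was not tested.

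*Ntng2* was higher in Arc in both of these glial types. In astrocytes it ran from 29.2 to 79.2 CPM (median 42.4) in WT-veh, from 25.2 to 44.9 CPM (median 33.5) in WT-PMX, from 57.5 to 91.5 CPM (median 65.7) in Arc-veh and from 51.0 to 92.7 CPM (median 63.7) in Arc-PMX. The groups overlapped through the well WT-veh F3 alone, and the log2 fold change was 0.77 (SE 0.14, edgeR adjusted p = 5.79e-05). In oligodendrocytes it was 0.71 (SE 0.18, edgeR adjusted p = 0.00957) on 2 to 40 counts a well, with 75.9 ± 17.1 CPM (n = 12) in Arc and 61.9 ± 43.9 CPM (n = 12) in WT and 0 of 12 Arc wells above every WT well. The 2 WT-veh wells with few oligodendrocytes stood highest among the WT wells, F3 at 184 CPM and M3 at 96.9 CPM, the other 10 ran from 25.8 to 76.0 CPM, and 5 of the 12 Arc wells were above these 10. Without F3 and M3 the log2 fold change was 0.78 (edgeR adjusted p = 0.00396). It was 0.50 (edgeR adjusted p = 0.135) with doublets kept, and it turned to -0.20 (edgeR adjusted p = 0.719) when nuclei were named by their highest marker score.

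Astrocytes fell into 4 clusters, and the share of the one led by *Gfap*, the filament gene of reactive astrocytes, was 0.811% in WT-veh, 0.747% in WT-PMX, 37.5% in Arc-veh and 34.0% in Arc-PMX. The summed astrocyte markers were at 28767 ± 1507 CPM in WT-veh, 28255 ± 1078 in WT-PMX, 22762 ± 1645 in Arc-veh and 22629 ± 623 in Arc-PMX (n = 6). The 14 astrocyte calls were fitted again without that cluster, an alternative chosen after the data had been seen. *Sema6d* (0.68, edgeR adjusted p = 5.84e-07), *Sema6a* (0.73, 1.24e-05), *Dcc* (-0.79, 5.8e-05), *Robo2* (0.50, 0.000484), *Ntng2* (0.55, 0.0222) and *Epha6* (-0.50, 0.0365) still passed. *Plxna2* was -0.16 (edgeR adjusted p = 0.701), against 0.60 with the cluster. *Epha4* (-0.23, against -0.49), *Epha7* (-0.58, against -0.97) and *Sema4d* (-0.26, against -0.55) were smaller and no longer passed. *Slit3* (-0.51, against -0.64), *Plxnc1* (0.43, against 0.42) and *Robo1* (0.25, against 0.27) stayed nearer to their values with the cluster but did not pass either. The edgeR adjusted p of these 6 lay between 0.0617 and 0.36, and *Plxnd1* was removed by the filter on low counts.

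**Figure D4:**
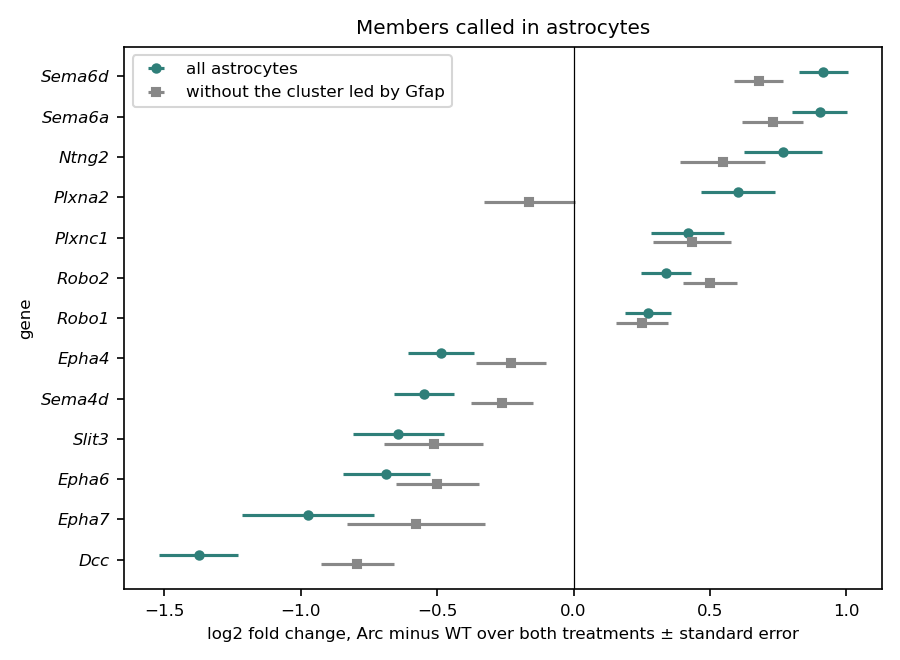
Log2 fold change of Arc minus WT over both treatments with its standard error (horizontal axis) for 13 members called in astrocytes (vertical axis), in all astrocytes and without the cluster led by *Gfap*. *Dcc* shrinks from -1.37 to -0.79, *Sema6d* from 0.91 to 0.68, and *Plxna2* crosses 0.

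Whether the genotype difference appeared in each treatment arm was asked by the contrasts Arc-veh against WT-veh and Arc-PMX against WT-PMX, which share no well. On water 15 pairs were called, 6 higher and 9 lower (4.25%, against 1.63% of all genes, 1.02% higher and 0.607% lower), and on PMX205 9 pairs, 7 higher and 2 lower (2.55%, against 1.46%, 1.01% higher and 0.454% lower). Leaving out 1 well at a time, the lower pairs ran from 5 to 10 on water and from 2 to 6 on PMX205. *Sema6d*, *Sema6a*, *Ntng2* and *Dcc* in astrocytes, *Sema3d* in OPCs, *Dcc* in oligodendrocytes and *Plxna4* in microglia were called in both arms. For *Sema3d* the log2 fold changes were 0.86 (SE 0.16) and 0.93 (SE 0.16), with edgeR adjusted p of 0.000664 and 0.000151. With nuclei named by their highest marker score they were 0.75 and 0.78 and neither passed (edgeR adjusted p = 0.355 and 0.21), and on water the value was 0.62 (edgeR adjusted p = 0.0916) without the nuclei that held much neuronal RNA. For *Dcc* in astrocytes they were -1.47 (SE 0.21) and -1.28 (SE 0.20), with edgeR adjusted p of 2.13e-06 and 8.72e-06, and on PMX205 the value was -0.83 (edgeR adjusted p = 0.0577) with nuclei named by their highest marker score. The calls on water of *Dcc* in oligodendrocytes (0.56, edgeR adjusted p = 0.0407) and *Plxna4* in microglia (-0.62, edgeR adjusted p = 0.0432) lay near the threshold. The former was lost under 7 of 12 alternatives and without any of 10 wells, the latter under 9 of 11 and without any of 11 wells. *Ntng2* in astrocytes lost its call on water under 5 of 13 alternatives and without any of 3 wells, and without the cluster led by *Gfap* it passed in neither arm (0.43 on water and 0.67 on PMX205, edgeR adjusted p = 0.414 and 0.0991). *Slit2* in DG granule neurons passed on PMX205 (0.84, SE 0.18, edgeR adjusted p = 0.0262), and not on water (0.75, SE 0.18, edgeR adjusted p = 0.0843), and the difference between the arms was 0.10 (SE 0.26, edgeR adjusted p = 1). On water it did pass with the replicate block (0.67, edgeR adjusted p = 0.0376), with adjustment over all types together (edgeR adjusted p = 0.0313) and with no filter on low counts (0.74, edgeR adjusted p = 4.3e-06). The call on PMX205 was lost without any of 6 wells, Arc-PMX F1 and M2 and WT-PMX F1, F2, M1 and M3. It was also lost in the larger granule neuron cluster alone (edgeR adjusted p = 0.201).

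**Figure D5:**
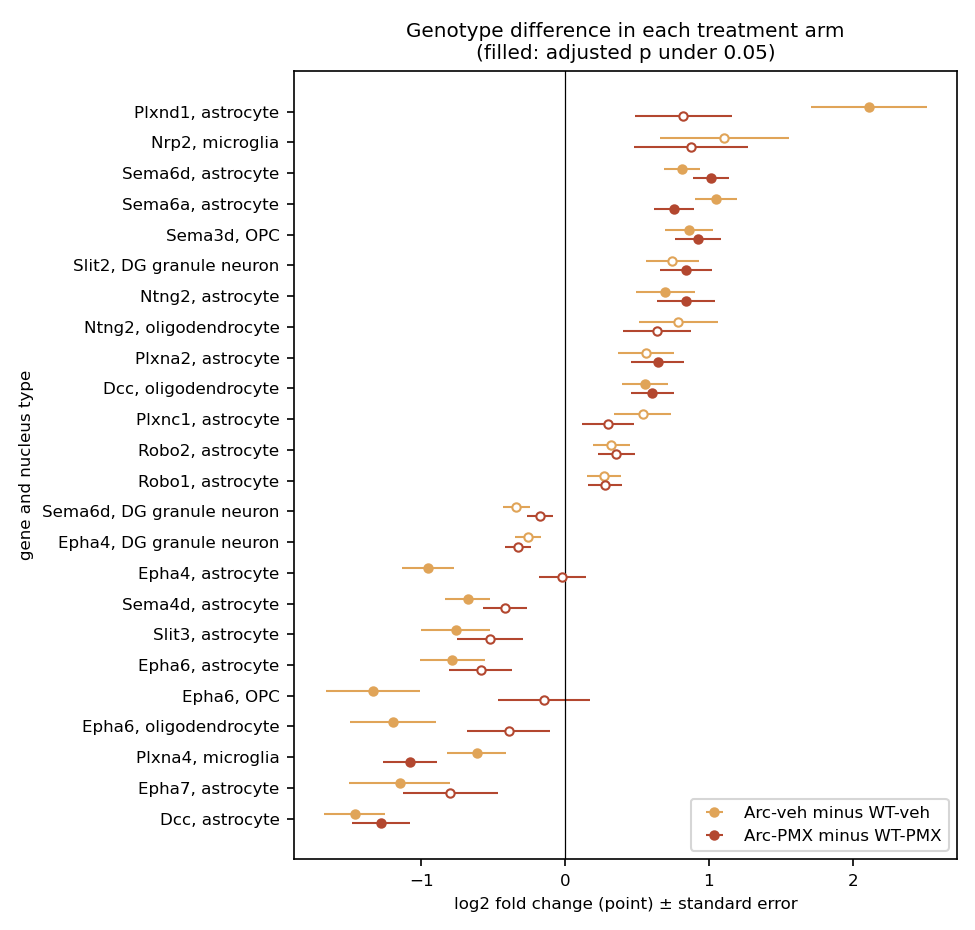
Log2 fold change with its standard error (horizontal axis) of Arc minus WT on water and on PMX205 for the 23 pairs called over both treatments and for *Epha6* in OPCs (vertical axis, gene and type), filled where the adjusted p was under 0.05. The sign is the same in both arms for every pair, which choosing pairs by their call favours. *Epha4* in astrocytes stands near 0 on PMX205.

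Over all 353 tested pairs the sign was the same in both arms for 236 (66.9%), against 56.5% of all genes. The share was 27 of 32 in DG granule neurons (84.4%, against 58.7%), 19 of 23 in oligodendrocytes (82.6%, against 60.7%) and 21 of 27 in astrocytes (77.8%, against 68.7%). It was 14 of 19 in OPCs (73.7%, against 57.8%), 14 of 28 in CGE interneurons (against 49.7%), 10 of 21 in endothelial cells (47.6%, against 46.9%) and 3 of 6 in microglia (against 67.3%). Called on water only were *Plxnd1*, *Epha4*, *Epha6*, *Epha7*, *Sema4d* and *Slit3* in astrocytes and *Epha6* in OPCs and oligodendrocytes. The call on water of *Epha6* in oligodendrocytes was lost under 4 of 12 alternatives and without WT-veh F2 (-0.68, edgeR adjusted p = 0.418). Leaving out the nuclei with much neuronal RNA ended that call and the one of *Slit3* in astrocytes on water. *Epha6* in OPCs was not called over both arms (-0.74, SE 0.23, edgeR adjusted p = 0.0722), though it passed with the replicate block (-0.75, edgeR adjusted p = 0.0346) and without WT-veh F3 and M3 (-0.84, edgeR adjusted p = 0.0279). By arm it was called on water only, with -1.34 (SE 0.33, edgeR adjusted p = 0.0165) on water and -0.15 (SE 0.32, edgeR adjusted p = 0.962) on PMX205, and its level in OPCs was 0.0305 of that in neurons, under the 0.0698 of the neuronal markers there. With nuclei named by their highest marker score its value on water was -0.18 (edgeR adjusted p = 0.995). A call in 1 arm does not show a difference between arms, and none of the 353 pairs passed the test of that difference.

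PMX205 against water gave no member call by edgeR in either genotype with low counts filtered. Without the filter it gave 2 in WT mice, with no share of all genes set beside them. In Arc mice 14 of the 353 pairs had an unadjusted p under 0.05 and 0 passed the adjustment, where 4 of 85535 pairs of all genes and types (0.00468%) did. In WT mice 10 pairs had an unadjusted p under 0.05 and 0 passed, and for the difference of the genotype effect between PMX205 and water 11 did and 0 passed, with 0.0% of all pairs called in both of these comparisons. Of all pairs 2.35% had an unadjusted p under 0.05 in Arc mice, 3.6% in WT mice and 3.23% for the difference. DESeq2 called 0 members in all 3. The member nearest to a response was *Epha4* in astrocytes, which ran from 27.9 to 68.4 CPM (median 43.1) in Arc-veh and from 55.1 to 84.9 CPM (median 73.7) in Arc-PMX, with 59.4 to 102 CPM (median 76.5) in WT-veh and 50.1 to 78.9 CPM (median 72.2) in WT-PMX. Arc-PMX wells thus lay within the range of the WT wells and 5 of the 6 Arc-veh wells below it. The pair was picked for its small p in this comparison, so the placing of its wells is no separate support. Its call on water was lost without the cluster led by *Gfap* (edgeR adjusted p = 0.088). The log2 fold change of Arc-PMX against Arc-veh was 0.73 (95% normal interval 0.39 to 1.06, edgeR unadjusted p = 0.000122, adjusted p = 0.446), and the difference of the genotype effect was 0.93 (SE 0.24, edgeR unadjusted p = 0.000423, adjusted p = 0.775). For *Sema6d* in astrocytes the interval of Arc-PMX against Arc-veh was -0.27 to 0.21, for *Sema3d* in OPCs -0.35 to 0.24 and for *Dcc* in astrocytes -0.26 to 0.58.

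The 20 members called in no type by edgeR, with low counts filtered and p adjusted within each type, were *Sema3a*, *Sema3c*, *Sema3e*, *Sema5a*, *Sema5b*, *Sema7a*, *Plxna1*, *Plxnb1*, *Plxnb3*, *Epha3*, *Epha5*, *Ephb1*, *Ephb2*, *Efna5*, *Efnb2*, *Slit1*, *Ntn1*, *Unc5c*, *Unc5d* and *Ntng1*. The smallest edgeR adjusted p among them over both treatments was 0.069 for *Epha3* in DG granule neurons (log2 fold change -0.31, SE 0.09). *Unc5d* followed in *Slc17a6* neurons with 0.70 (SE 0.17, edgeR adjusted p = 0.132), and *Sema3c* in the same neurons had the largest value, 1.45 (SE 0.40, edgeR adjusted p = 0.237). DESeq2 called *Epha3* and *Unc5d* in these types, the replicate block called *Epha3*, and adjustment over all types together called *Unc5d* and *Sema3c*. With no filter on low counts, with doublets kept, with nuclei named by their highest marker score or without WT-veh F3 and M3 further members of the 20 were called. For *Ephb1*, tested in 9 types, the log2 fold changes lay between -0.25 and 0.12, and for *Plxnb3*, tested in 2, between 0.01 and 0.22. Both were called in microglia with doublets kept and with nuclei named by their highest marker score. The nuclei named microglia were then 2601 and 2053, in place of 1516.

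Other genes of the pathway were counted in the same fits from lists of 45 further ligands, receptors and coreceptors and 44 intracellular effectors. Of 221 tested pairs of the former, 3 rose and 5 fell in Arc over both treatments, 1 and 5 of them among 16 tested in astrocytes, where 11.5% and 8.55% of all genes did (1.72% and 1.16% over all types). *Nrp1*, the coreceptor of secreted semaphorins beside *Nrp2*, was at 940 ± 138 CPM in Arc and 357 ± 201 CPM in WT microglia (log2 fold change 1.38, SE 0.18, edgeR adjusted p = 1.92e-07). In astrocytes *Sema4g* rose by 1.12 (SE 0.24, edgeR adjusted p = 0.000406) and the netrin and repulsive guidance receptor *Neo1* was lower (-0.32, SE 0.08, edgeR adjusted p = 0.00295), but without the cluster led by *Gfap* neither passed (0.51 and -0.19, edgeR adjusted p = 0.298 and 0.243). Of 436 tested pairs of effectors 12 rose and 6 fell, 6 and 5 of them among 36 in astrocytes and 3 and 0 among 28 in oligodendrocytes, where 5.51% of all genes were called in either direction.

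Among the effectors *Dpysl3*, a collapsin response mediator that carries semaphorin signals to the cytoskeleton, went from 14.3 ± 10.6 to 52.2 ± 9.27 CPM in astrocytes (log2 fold change 1.96, SE 0.20, edgeR adjusted p = 2.38e-10). The exchange factor *Kalrn*, the flavoprotein *Mical2* and the chimaerin *Chn1*, which act below Eph, plexin and Eph receptors in that order, were lower in astrocytes, with log2 fold changes of -0.61, -0.57 and -0.52 (edgeR adjusted p = 8.73e-07, 1.4e-06 and 0.00177). The neuronal markers and the cluster led by *Gfap*, which differ by genotype in astrocytes as given above, were set beside these genes too. Without the nuclei with much neuronal RNA *Kalrn*, *Mical2* and *Chn1* were at -0.63, -0.63 and -0.61 (edgeR adjusted p = 5e-07, 5.02e-07 and 0.000624). Without the cluster they were at -0.37, -0.29 and -0.32, and *Chn1* no longer passed (edgeR adjusted p = 0.00537, 0.0369 and 0.153). *Dpysl3* was at 2.08 (edgeR adjusted p = 8.27e-10) without the nuclei with much neuronal RNA, and the filter on low counts removed it without the cluster. In oligodendrocytes *Arhgef12*, an exchange factor bound by B plexins, went from 322 ± 55.4 to 487 ± 65.8 CPM (log2 fold change 0.57, SE 0.09, edgeR adjusted p = 2.89e-05). In microglia *Srgap2*, the GTPase activator named for Slit and Robo, was at 2414 ± 257 CPM in Arc and 4117 ± 621 CPM in WT (-0.71, SE 0.10, edgeR adjusted p = 1.05e-06). On water alone the counts were 2 higher and 2 lower for the further ligands and receptors and 4 and 4 for the effectors, where 1.02% of all pairs were higher and 0.607% lower.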

How the data were processed

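Counts of transcripts per gene and barcode were deposited by the authors for 7 sublibraries, made by the Parse split-pipe pipeline on mm10 with no normalization and no filter on cells. The submitters' processing notes also name bcl2fastq. Of 1516119 barcodes, 1138308 came from single-nucleus wells. The study's thresholds were applied (more than 300 and fewer than 50000 transcripts, under 1% mitochondrial, more than 400 genes), which left 45138 nuclei, and Scrublet scores above 0.25 removed 1253 (2.78%). Of the former 8449 shared their barcode with a nucleus of another sublibrary and were kept apart by sublibrary. Nuclei were clustered in scanpy 1.11.5 on 2000 variable genes without the members, 30 components and 15 neighbours (Leiden, resolution 1.5). Of 39 clusters, 6 (4174 nuclei) stayed unnamed. Clusters had been seen before the rule for naming them was set.

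Since a well holds 1 mouse, counts were summed over the nuclei of a type in a well, with a minimum of 10 nuclei. edgeR 4.0.16 fitted all genes of a type with all 4 groups and sex (TMM, filterByExpr, quasi-likelihood test), with p-values adjusted by Benjamini-Hochberg for each type and contrast separately (threshold 0.05), in place of the study's Wilcoxon test on cells. The members and lists were chosen with earlier results of these data known. Genes named are every member called, each member's 2 highest types, the 10 listed pathway genes with the smallest adjusted p, and label checks. Of the 10 listed pathway genes, 1 is not reported here. Annotation followed mm10, RefSeq promoters GRCm38.p6. Single-cell wells selected on CD11b were not analysed here. Alternatives were relative log expression size factors, DESeq2 1.42.0, no filter, no sex term, only 2 groups, each well left out, the replicate block, doublets kept, over 500 transcripts and genes, nuclei named by marker score, adjustment over all types, and nuclei with much neuronal RNA left out.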

Additional observations from a re-analysis of the deposited data

Results flagged for a closer look

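Among 96 groups of 6 or fewer wells behind the members called, 4 held a well far from the others by Dixon's rule. The nominal rate of that rule is about 1 in 20 groups and was not checked on these data. In astrocytes *Epha7* was at 40.6 CPM in Arc-PMX M2, against 11.0 to 18.9 CPM in the other 5 wells of the group. *Ntng2* was at 79.2 CPM in WT-veh F3, against 29.2 to 43.0 CPM. *Robo2* was at 609 CPM in Arc-veh M1, against 437 to 488 CPM. In oligodendrocytes *Epha6* was at 383 CPM in WT-veh F2, against 91.9 to 194 CPM, and its call was lost without that well.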

How the results depend on the processing

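The direction of the named values held in nearly all alternatives. Without each well in turn 1061 of 1120 values kept their side of the threshold, 59 lost their call and 0 turned. The number of pairs of a member and a type higher in Arc over both treatments then ran from 12 to 14 and of those lower from 9 to 13. On water they ran from 4 to 7 and from 5 to 10, and on PMX205 from 4 to 8 and from 2 to 6. The counts for the effectors ran from 15 to 19 over both and from 7 to 9 on water, and for the further ligands and receptors from 5 to 9 and from 3 to 5. *Plxna4* in microglia on water lost its call without any of 11 wells and *Dcc* in oligodendrocytes on water without any of 10, among them WT-veh F3. *Epha6* in oligodendrocytes lost its call without WT-veh F2 (-0.52). On water alone *Epha6* in OPCs was lost without Arc-veh F3, WT-veh M1 or M2, *Epha6* in astrocytes without WT-veh M1, *Epha7* without Arc-veh M2 or WT-veh F1, *Ntng2* in astrocytes without Arc-veh F2, WT-veh F1 or F2, and *Slit3* without Arc-veh F1, WT-veh F1, F2 or M1. On PMX205 *Plxna2* was lost without Arc-PMX M3 or WT-PMX M3 and *Dcc* in oligodendrocytes without Arc-PMX M2 or WT-PMX M3.

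Of 570 values under the other alternatives 495 kept their side and 3 turned sign, *Plxna2* in astrocytes to -0.16 over both treatments and -0.22 on PMX205 without the cluster led by *Gfap*, and *Ntng2* in oligodendrocytes to -0.20 under the highest marker score. With no filter on low counts 28 pairs were higher in Arc over both treatments, 14 on water and 20 on PMX205, with 2 called for PMX205 in WT mice, 2 for the difference of the genotype effect, and 13 and 7 further ligands and receptors over both and on water. With doublets kept 22 were lower over both and 17 on water, with 17 and 12 further ligands and receptors and 28 and 13 effectors. Adjustment over all types left 5 lower pairs and 2 further ligands and receptors on water, the highest marker score left 1 lower on PMX205, and without WT-veh F3 and M3 (chosen after the data were seen) 5 further ligands and receptors were called over both. The cause was not tested. The share of all genes called under each of these alternatives was not set beside these counts, so they are no result about the members. DESeq2 called 26, 14 and 9 pairs over both, on water and on PMX205, against 23, 15 and 9. Whether replicate numbers pair the wells was not settled. Deviations of same-numbered wells correlated with a median of 0.0619 (-0.53 to 0.482) in DG granule neurons over 36 pairs. In CA1 neurons it was 0.0632 (-0.464 to 0.488) and in astrocytes 0.0204 (-0.239 to 0.268). With the replicate block 26, 15 and 10 were called, 23, 14 and 9 of them shared, and of the named calls it ended *Plxna4* in microglia on water and added *Epha6* in OPCs, *Epha3* and *Plxnd1* in DG granule neurons over both, *Slit2* there on water and *Epha6* in astrocytes on PMX205. Levels moved by more than their spread in 16 of 114 values. Of these, 15 of 38 moved with nuclei named by marker score, 1 of 38 with doublets kept and 0 of 38 under the stricter filter on nuclei. Few members passed the filter in microglia (6), OPCs (19) and endothelial cells (21).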
